A study of Mus musculus with 21 samples.

Results

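The antioxidant and glutathione genes described here are 45 genes picked by symbol from a fixed list, out of 56691 genes in the deposited expression table of mouse hearts. All 45 symbols were found once in the table. Of these genes, 44 reached the minimum for testing, a mean FPKM of at least 0.5 over all libraries, which 13990 genes of the table reached. *Mgst2* was below it.

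The study compared hearts of mice with and without a tumor, with and without doxorubicin (DOX), an anthracycline used in chemotherapy that is known for cardiotoxicity. There were 5 Control libraries from mice given normal saline, 5 DOX libraries from mice given doxorubicin, 6 Tb libraries from tumor-bearing mice given normal saline and 5 Tb-DOX libraries from tumor-bearing mice given doxorubicin. Doxorubicin was injected intraperitoneally at 5 mg/kg in 3 weekly injections. Tumors were grown from 4T1 cells, a murine breast cancer line, injected subcutaneously. The strain, sex and age of the mice were not given in the sources used here, and neither was whether each library came from a separate mouse, so that p-values measure only the spread between these libraries, which may in part be technical. The labels name 4T-1 as source and cell line of every library, those of mice without a tumor included, whereas the study's methods describe heart tissue. The summed level of 8 cardiomyocyte markers was 48279 to 87829 CPM (counts scaled to the library total times its TMM factor, which sets most genes to no change between libraries) in all 21 libraries, and *Myh6*, the main cardiac myosin heavy chain of the adult mouse, was at 14771 to 32856 CPM.

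Cells limit oxidants with enzymes that act in layers. Superoxide dismutases turn superoxide into hydrogen peroxide, which catalase, glutathione peroxidases and peroxiredoxins then remove. Glutathione, a tripeptide made by *Gclc*, *Gclm* and *Gss*, supplies the electrons for the peroxidases and is joined to reactive compounds by glutathione S-transferases, while thioredoxin and its reductases regenerate the peroxiredoxins. Many of these genes are known targets of NRF2 (*Nfe2l2*), a transcription factor that the adaptor KEAP1 marks for degradation until oxidants or electrophiles modify it.

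NRF2 binds a DNA element whose core was searched as TGACNNNGC on both strands, in windows of 300 bases, 250 before and 50 after each transcript start (RefSeq, build GRCm38.p6). The windows of 10 of the 39 members with an entry held it (*Nfe2l2*, *Gclm*, *Gsta3*, *Gstm5*, *Gstm7*, *Mgst1*, *Prdx1*, *Srxn1*, *Sod1* and *Txnrd1*). Counted by window, a match was in 10 of 50 member windows (20.0%) and in 12.4% of all 32851 windows of the genome. The 250 bases before the start are printed for 3 genes whose response to doxorubicin differed with a tumor (chosen after their values were seen), with the element in capitals. They are *Gclm* (chr3:122245307-122245556, plus strand), *Txnrd1* (chr10:82858956-82859205, plus strand, 1 of its 3 windows) and *Nqo1* (chr8:107403206-107403455, minus strand). The match began 134 bases before the start in *Gclm* and 92 bases before it in *Txnrd1*, and these letters were not in the *Nqo1* window.
Gclm: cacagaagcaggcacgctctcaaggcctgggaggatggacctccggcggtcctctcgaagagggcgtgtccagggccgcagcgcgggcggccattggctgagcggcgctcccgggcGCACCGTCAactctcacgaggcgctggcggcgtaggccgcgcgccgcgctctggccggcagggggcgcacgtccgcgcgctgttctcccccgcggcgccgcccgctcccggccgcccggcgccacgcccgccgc
Txnrd1: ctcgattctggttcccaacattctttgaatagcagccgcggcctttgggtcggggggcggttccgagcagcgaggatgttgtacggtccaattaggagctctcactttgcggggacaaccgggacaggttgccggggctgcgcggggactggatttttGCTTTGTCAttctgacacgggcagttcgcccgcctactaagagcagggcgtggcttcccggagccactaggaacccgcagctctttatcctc
Nqo1: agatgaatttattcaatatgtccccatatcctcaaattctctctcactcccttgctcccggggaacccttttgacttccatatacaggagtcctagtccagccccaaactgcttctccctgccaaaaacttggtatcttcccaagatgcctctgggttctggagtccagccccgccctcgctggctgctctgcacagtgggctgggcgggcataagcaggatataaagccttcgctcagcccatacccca

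Levels are given as TMM-scaled FPKM, which is the count divided by exon length and library size after scaling between libraries by TMM, so that levels of different genes can be set side by side. By the mean over all libraries, the order began with *Gpx3* (171), a secreted glutathione peroxidase, *Gpx4* (155), which reduces lipid peroxides, *Txnip* (138), the thioredoxin-binding inhibitor, and *Prdx3* (134), the mitochondrial peroxiredoxin. It ended with *Gstt2* (1.62), *Gstt3* (0.699) and *Mgst2* (0.157). The group ranges of *Gpx4*, *Txnip* and *Prdx3* overlapped in Control, and *Gpx3* (116 in Control, 225 in DOX) was below all 3 of them in its Control mean, so the order of these neighbours is not beyond their spread there. The median coefficient of variation over the 45 genes was 12.0% in Control, 15.5% in DOX, 16.1% in Tb and 12.3% in Tb-DOX. Some levels carry an added uncertainty, since 100-base stretches of the transcript also occur in transcripts of other genes for *Gpx4* (25.2% of stretches), *Gstp1* (25.1%), *Sod2* (12.8%), *Gstt3* (10.8%) and *Gstm1* (5.86%), and the counting could have split such reads.

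**Figure D1:**
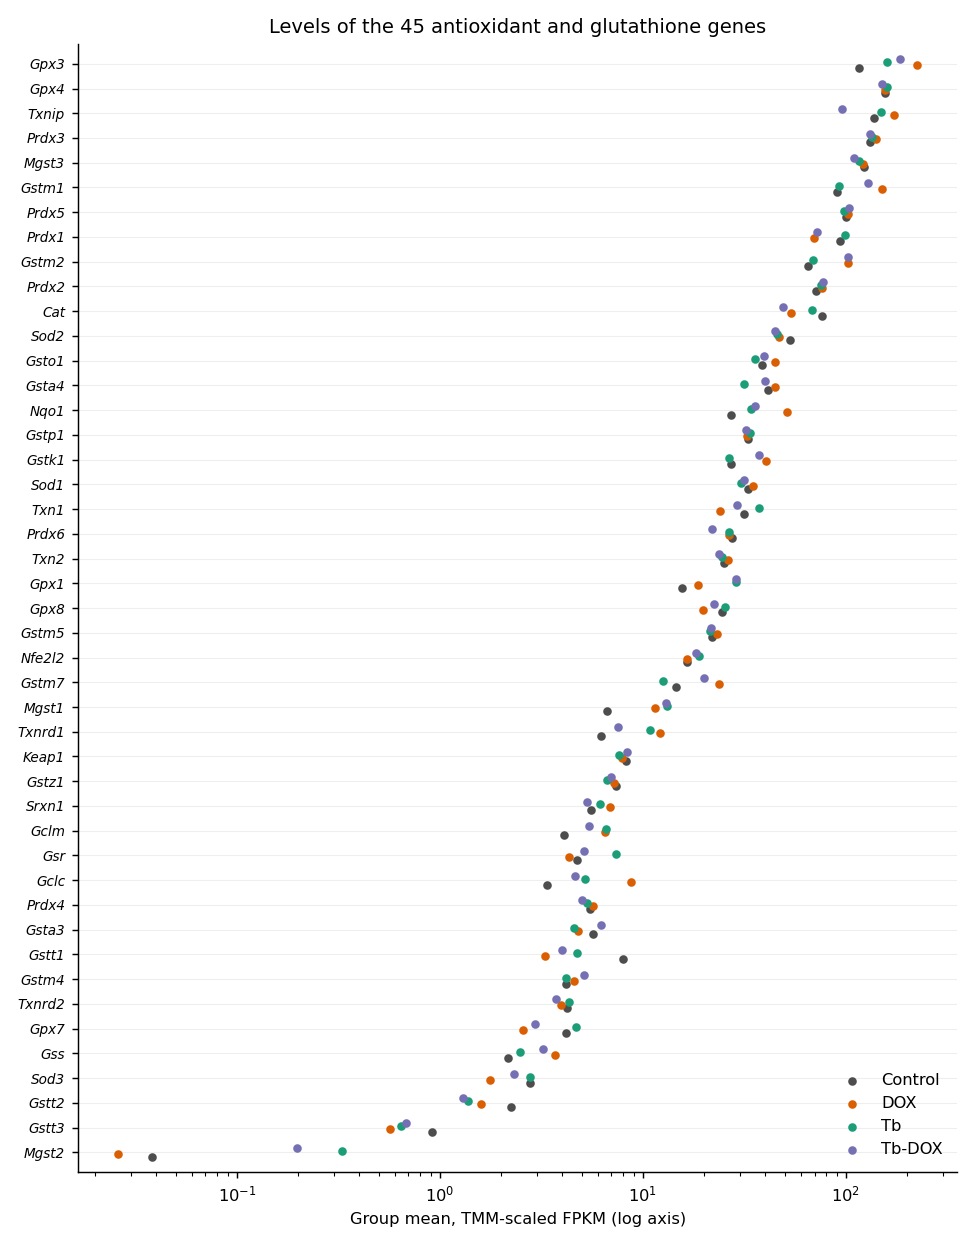
Mean level of each of the 45 genes in each group, as TMM-scaled FPKM on a log axis; each point is a group mean over 5 (Control, DOX, Tb-DOX) or 6 (Tb) libraries, and genes are ordered by their mean over all libraries. Levels span from *Gpx3* at 116 to 225 down to *Mgst2* at 0.0259 to 0.330.

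Doxorubicin changed 17 of the 44 tested genes in mice without a tumor (edgeR quasi-likelihood test, Benjamini-Hochberg adjusted p under 0.05). Of these 11 rose, which were *Nqo1*, *Gclc*, *Gclm*, *Gss*, *Gpx3*, *Gstm1*, *Gstm2*, *Gstm7*, *Gstk1*, *Mgst1* and *Txnrd1*. The other 6 fell, namely *Gpx7*, *Gstt1*, *Prdx1*, *Sod3*, *Cat* and *Txn1*. The rises made up 25.0% of the members tested, where 18.0% of all genes tested rose, and the falls 13.6%, where 18.2% of all genes fell. The share of rises was thus above that of all genes and the share of falls below it, and neither gap was tested. The median log2 fold change was 0.05 over the members and 0.00 over all genes, and the median absolute log2 fold change was 0.29 and 0.35.

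Only *Gclc* and *Gstt1* also passed an absolute log2 fold change of 1, the limit for a differentially expressed gene (DEG), which 4.16% of all genes passed upwards and 5.79% downwards. The Control and DOX libraries did not overlap for 15 of the 44 members (34.1%), against 25.3% of all genes tested. When counts were scaled by library totals alone, the median of all genes moved to −0.14 on the log2 scale, and 9 members rose while 8 fell.

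In tumor-bearing mice doxorubicin changed 6 of the 44 genes, all of which were also called without a tumor. *Gstm1*, *Gstm2*, *Gstm7* and *Gstk1* rose, and *Gpx7* and *Prdx1* fell. These were 9.09% and 4.55% of the members, where 2.18% of all genes rose and 2.54% fell. None passed the DEG limit, and 13 had an unadjusted p under 0.05 in edgeR. DESeq2 called 10 at an adjusted p under 0.05. Tb and Tb-DOX libraries did not overlap for 4 members (9.09%), against 4.96% of all genes.

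The difference between both doxorubicin effects (the interaction, the log2 fold change with a tumor minus that without) was tested in the same model. It was called for *Nqo1*, *Gclc*, *Gclm* and *Txnrd1*, each negative. This was 9.09% of the members, where 5.0% of all genes were called negative and 3.95% positive. No member was called positive, although *Gstt1* was under 5 of the alternatives, among them DESeq2 (1.03, adjusted p = 0.0441) and the fit without Tb replicate 5 (0.84, adjusted p = 0.0306). The 4 genes called negative also had higher estimates in Tb than in Control, none of them called. Log2 fold changes were 0.32 for *Nqo1*, 0.63 for *Gclc*, 0.68 for *Gclm* and 0.80 for *Txnrd1* (adjusted p = 0.0542 to 0.116). Those of *Gclc*, *Gclm* and *Txnrd1* were called without at least 1 library. A higher Tb level enters the difference, and for *Gclm* Tb-DOX against DOX was only −0.27 (adjusted p = 0.398).

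**Figure D2:**
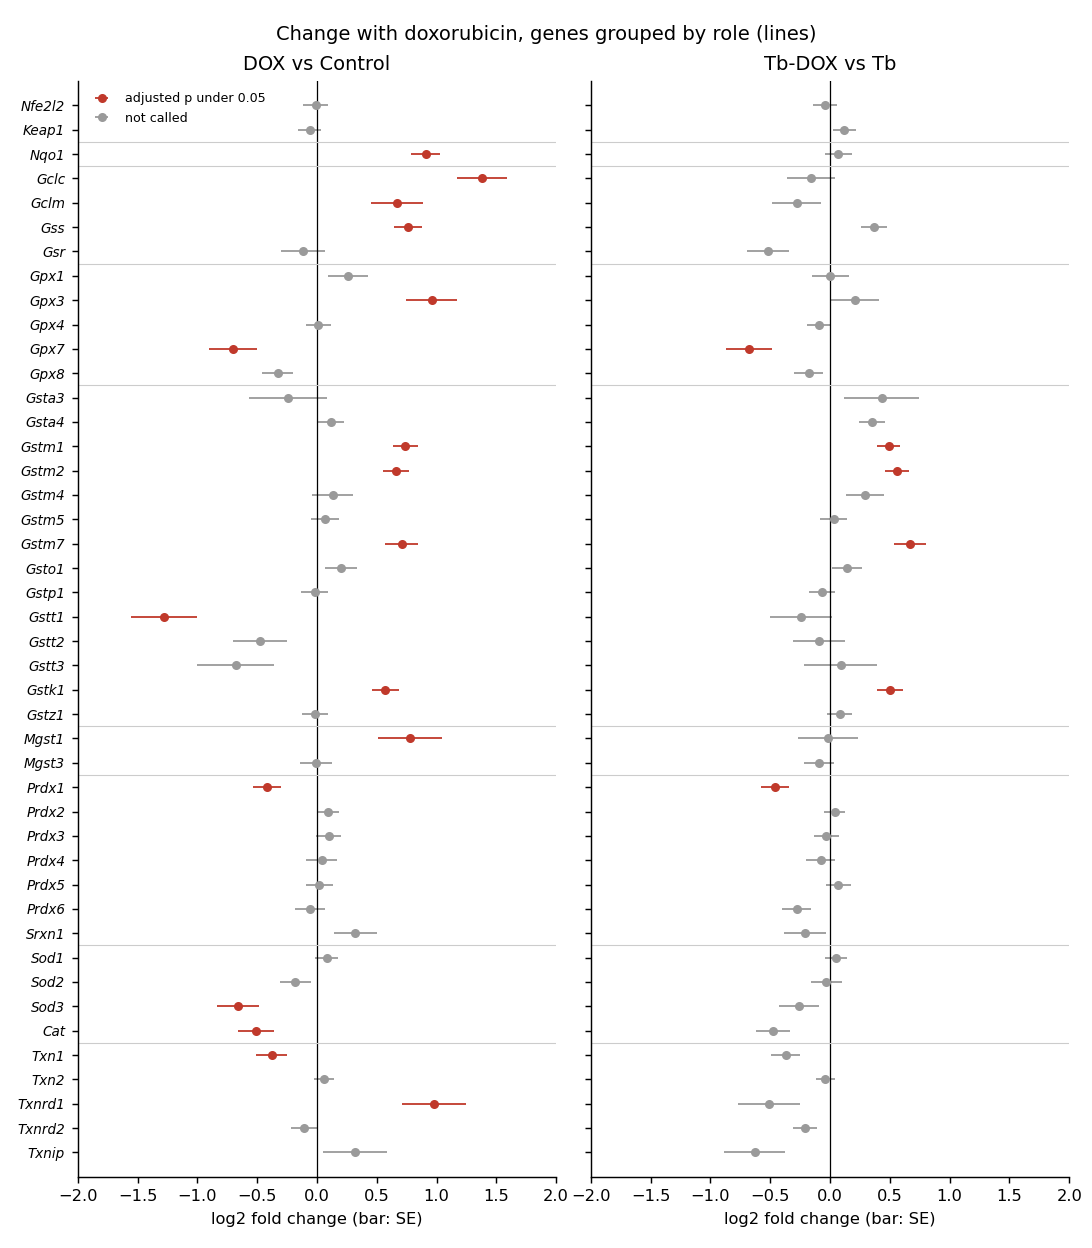
Log2 fold change with doxorubicin of the 44 tested genes, in mice without a tumor (DOX vs Control) and with a tumor (Tb-DOX vs Tb); bars are standard errors, red points have an adjusted p under 0.05, and grey lines part the roles. There are 17 red points on the left and 6 on the right, and *Nqo1*, *Gclc*, *Gclm* and *Txnrd1* are red on the left only.

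*Nfe2l2*, which encodes NRF2, was at 17.3, 17.6, 15.0, 16.3 and 16.5 in Control, at 12.5, 15.8, 17.1, 17.2 and 19.6 in DOX, at 17.3 to 20.8 (median 18.9) in Tb and at 19.8, 15.5, 17.9, 21.1 and 17.1 in Tb-DOX. All groups overlapped. *Keap1* was at 8.19, 8.53, 9.48, 7.72 and 7.36 in Control, at 7.85, 8.76, 8.24, 7.09 and 7.69 in DOX, at 6.56 to 9.05 (median 7.72) in Tb and at 8.52, 9.19, 7.64, 8.73 and 7.57 in Tb-DOX. Neither transcript was called in any of the 5 comparisons. Doxorubicin changed the log2 level by −0.01 (SE 0.104) for *Nfe2l2* and −0.06 (SE 0.0976) for *Keap1* without a tumor, and −0.04 (SE 0.0992) and 0.12 (SE 0.093) with a tumor.

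*Nqo1*, the quinone reductase that reduces quinones by transfer of a pair of electrons, rose with doxorubicin in mice without a tumor. Its level was 32.0, 27.7, 23.3, 26.1 and 26.7 in Control, 44.9, 60.9, 58.3, 49.7 and 42.2 in DOX, 28.7 to 41.5 (median 33.6) in Tb and 35.1, 29.4, 34.7, 42.7 and 36.2 in Tb-DOX. Every DOX library was above every Control library, whereas Tb and Tb-DOX overlapped. Doxorubicin raised *Nqo1* by 0.91 on the log2 scale (SE 0.122, adjusted p = 1.72e-05) without a tumor, against 0.07 (SE 0.115, adjusted p = 0.776) with a tumor, a difference of −0.84 (SE 0.168, adjusted p = 0.0106). Levels in Tb-DOX were below those in DOX by a log2 fold change of −0.52 (SE 0.121, adjusted p = 0.0048), a call that was lost when counts were scaled by library totals alone. The difference of −0.84 was called without each of the 21 libraries in turn.

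Of the 4 genes of glutathione synthesis and recycling, 3 rose with doxorubicin in mice without a tumor and none was called in tumor-bearing mice, where 2 had an unadjusted p under 0.05. Of all genes 18.0% rose without a tumor and only 2.18% with a tumor, so that no rise among 4 genes is near the background there. *Gclc*, the catalytic subunit of glutamate-cysteine ligase, which carries out the first step of glutathione synthesis, was at 3.49, 3.45, 3.19, 3.51 and 3.11 in Control, at 6.39, 8.46, 14.7, 8.41 and 5.66 in DOX, at 3.95 to 7.74 (median 4.77) in Tb and at 3.64, 4.13, 4.92, 5.65 and 4.86 in Tb-DOX. The DOX libraries lay above all Control libraries, and the Tb libraries did too (log2 fold change 0.63, SE 0.201, adjusted p = 0.0667 between Tb and Control). On the log2 scale *Gclc* changed by 1.38 (SE 0.21, adjusted p = 5.75e-05) without a tumor and −0.16 (SE 0.198, adjusted p = 0.7) with a tumor, and the difference was −1.54 (SE 0.289, adjusted p = 0.00875). Without Tb replicate 5 the change with a tumor was −0.01 (SE 0.182). The DOX libraries were also above the Tb-DOX libraries without overlap (log2 fold change −0.91, SE 0.207, adjusted p = 0.00433).

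*Gclm*, the modifier subunit of the same ligase, was at 5.26, 4.55, 3.05, 3.71 and 3.95 in Control, at 5.01, 6.39, 11.9, 5.0 and 4.35 in DOX, at 4.99 to 8.08 (median 6.66) in Tb and at 5.66, 5.50, 5.10, 6.51 and 4.31 in Tb-DOX. DOX replicate 3 stood far above the other DOX libraries, and Control and DOX overlapped. With all libraries it changed by 0.67 on the log2 scale (SE 0.215, adjusted p = 0.0184) without a tumor and −0.28 (SE 0.204, adjusted p = 0.479) with a tumor, a difference of −0.95 (SE 0.297, adjusted p = 0.0488). Without DOX replicate 3 the log2 fold change of *Gclm* was 0.35 (adjusted p = 0.0985) and the difference −0.62 (adjusted p = 0.0825), so that both calls were lost. The call without a tumor was also lost when counts were scaled by library totals alone and in both limma fits. Leaving out 1 library at a time ended the call on the difference in 14 of 21 fits.

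*Gss*, glutathione synthetase, which completes the tripeptide, rose from 2.16 ± 0.197 (SD, n = 5) in Control to 3.67 ± 0.271 (n = 5) in DOX, with no overlap (log2 fold change 0.76, SE 0.117, adjusted p = 6.19e-05). In tumor-bearing mice it was 2.49 ± 0.426 (n = 6) in Tb and 3.21 ± 0.311 (n = 5) in Tb-DOX (log2 fold change 0.37, SE 0.11, adjusted p = 0.0577). Without Tb replicate 5, the highest Tb library, the rise with a tumor was called (0.47, SE 0.0964, adjusted p = 0.00662). *Gsr*, the reductase that recycles oxidized glutathione, was 4.71 ± 0.468 in Control and 4.34 ± 0.733 in DOX (adjusted p = 0.648). With a tumor it was 7.37 ± 2.40 in Tb and 5.15 ± 0.798 in Tb-DOX (log2 fold change −0.52, SE 0.173, adjusted p = 0.0894). Without Tb replicate 5 this change was −0.33 (SE 0.136, adjusted p = 0.165).

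*Txnrd1*, the cytosolic thioredoxin reductase, was at 6.96, 5.66, 4.90, 6.62 and 6.83 in Control, at 10.8, 10.6, 16.9, 15.2 and 7.70 in DOX, at 6.92 to 24.1 (median 8.39) in Tb and at 7.26, 7.41, 7.75, 7.27 and 8.16 in Tb-DOX. All DOX libraries lay above all Control libraries, and Tb replicate 5 alone exceeded every other library of the study. Its rise was 0.98 on the log2 scale (SE 0.269, adjusted p = 0.00708) without a tumor, against −0.51 (SE 0.256, adjusted p = 0.268) with a tumor, and the difference was −1.49 (SE 0.372, adjusted p = 0.022). Without Tb replicate 5 the change with a tumor was −0.10 (SE 0.152, adjusted p = 0.784) and the difference −1.09 (adjusted p = 0.00534).

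**Figure D3:**
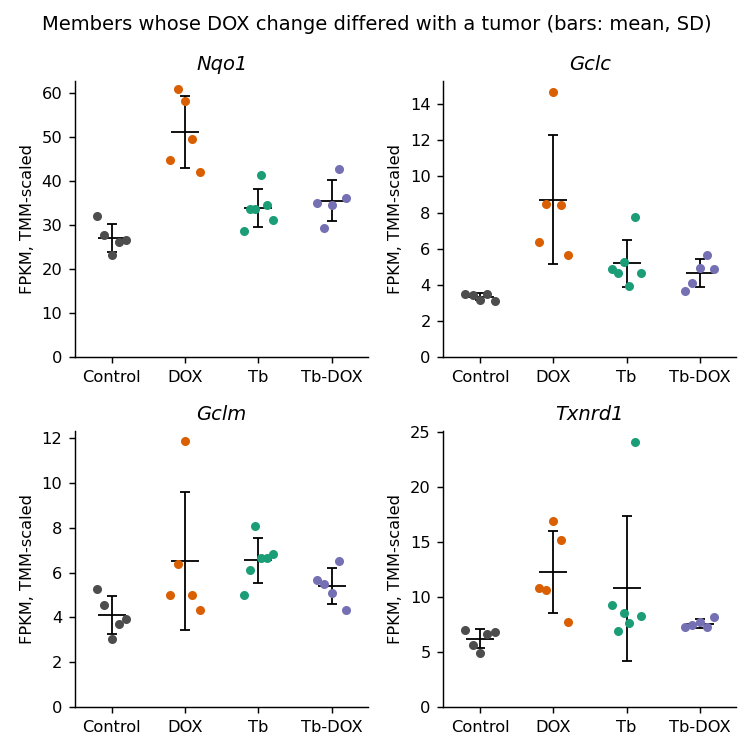
Level of *Nqo1*, *Gclc*, *Gclm* and *Txnrd1* in each library as TMM-scaled FPKM, with the mean and SD of each group; these are the 4 members whose change with doxorubicin differed between mice with and without a tumor. For *Nqo1*, *Gclc* and *Txnrd1* the DOX points lie above all Control points, while Tb and Tb-DOX points overlap, and 1 DOX point of *Gclm* at 11.9 and 1 Tb point of *Txnrd1* at 24.1 stand apart.

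*Txn1*, cytosolic thioredoxin, fell from 31.3 ± 4.81 in Control to 24.0 ± 3.45 in DOX (n = 5 each, log2 fold change −0.38, SE 0.127, adjusted p = 0.023), a call lost without Control replicate 3, Control replicate 4 or DOX replicate 1. Its Tb and Tb-DOX libraries did not overlap (37.3 ± 6.0 and 28.9 ± 2.48), with a log2 fold change of −0.37 (SE 0.121, adjusted p = 0.0821). *Txn2* and *Txnrd2*, the mitochondrial thioredoxin and its reductase, were not called in any comparison, and their group means were 23.8 to 26.2 and 3.75 to 4.33.

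*Txnip* was at 195, 144, 119, 94.8 and 135 in Control, at 144, 117, 138, 152 and 307 in DOX, at 101 to 234 (median 131) in Tb and at 143, 74.7, 78.4, 73.9 and 106 in Tb-DOX. Its groups overlapped in each comparison, and DOX replicate 5 stood above every other library of the study. The one call was between Tb-DOX and DOX, with a log2 fold change of −0.85 (SE 0.268, adjusted p = 0.0319), and it was lost without DOX replicate 5 (log2 fold change −0.54) or Tb-DOX replicate 2, 3 or 4 (−0.80 to −0.77), when counts were scaled by library totals alone, with a minimum mean FPKM of 5 and in both limma fits.

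Of the 5 glutathione peroxidases, 1 rose and 1 fell with doxorubicin without a tumor, and 1 fell with a tumor. The 20% in each direction without a tumor were near the 18.0% and 18.2% of all genes, and with a tumor 2.54% of all genes fell. *Gpx3* was at 119, 115, 133, 111 and 99.3 in Control, at 189, 214, 297, 292 and 135 in DOX, at 106 to 252 (median 136) in Tb and at 174, 198, 157, 233 and 160 in Tb-DOX. Control and DOX did not overlap, with a rise of 0.96 on the log2 scale (SE 0.214, adjusted p = 0.00157). With a tumor it was 0.21 (SE 0.202, adjusted p = 0.6), or 0.40 (SE 0.18, adjusted p = 0.206) without Tb replicate 5, the highest Tb library. The difference of −0.75 (SE 0.294) missed the threshold (adjusted p = 0.0994), and was called without DOX replicate 5 (−0.90, adjusted p = 0.0378).

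*Gpx7*, a peroxidase of the endoplasmic reticulum, fell in both states. Its level was 4.17 ± 1.09 in Control and 2.58 ± 0.524 in DOX (log2 fold change −0.70, SE 0.202, adjusted p = 0.0104), and 4.70 ± 0.821 in Tb and 2.93 ± 0.476 in Tb-DOX (log2 fold change −0.68, SE 0.191, adjusted p = 0.0431). The groups overlapped in both states, and the call with a tumor was lost in 12 of the 21 fits that left out 1 library (log2 fold changes −0.76 to −0.60 over all 21) and when counts were scaled by library totals alone. *Gpx4* did not pass the test in any comparison, with group means of 150 to 159. *Gpx8*, also of the endoplasmic reticulum, was 24.6 ± 1.72 in Control and 19.7 ± 0.745 in DOX, without overlap, and missed the threshold (log2 fold change −0.33, SE 0.129, adjusted p = 0.0518), which it passed in 4 of the 21 fits that left out 1 library. *Gpx1*, a cytosolic peroxidase, was not called with doxorubicin.

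Summed levels of 8 fibroblast markers, among them collagens, were 1322 to 1885 CPM in Control, 974 to 1470 in DOX, 1183 to 1522 in Tb and 851 to 1206 in Tb-DOX. None of the 8 was at 0 in all libraries, and 6 of them fell with doxorubicin without a tumor while 1 rose, and 5 fell with a tumor while none rose. *Dcn*, the largest part of the sum, was called in neither state, whereas the collagen *Col3a1* was at 126 to 298 CPM in Control, 4.92 to 38.7 in DOX, 92.9 to 229 in Tb and 22.5 to 89.7 in Tb-DOX. *Gpx7* fell alongside, as did *Sod3* in mice without a tumor, and the part of these cells in either fall was not tested. In bulk tissue fewer cells of a type and less RNA per cell cannot be told apart.

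The 14 cytosolic, mitochondrial and peroxisomal glutathione S-transferases held 4 of the 6 members called in both states, all of them rises, and had 1 fall in mice without a tumor. The 4 rises were 28.6% of the 14 genes in each state, where 18.0% of all genes rose without a tumor, 2.18% with a tumor and 1.51% in both (1.80% fell in both). Of the 14, *Gstm5*, *Gstm7*, *Gstm2*, *Gstm1* and *Gstm4* lie in 1 cluster on chromosome 3 (107803137 to 107952210, GRCm39 coordinates of the table). *Gstm1*, *Gstm2* and *Gstm7* rose in both states, and *Gstm4* and *Gstm5* were called in neither.

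*Gstm1*, with the highest level of the family, was at 90.7, 89.6, 101, 77.0 and 91.9 in Control, at 140, 149, 172, 152 and 141 in DOX, at 76.4 to 110 (median 95.9) in Tb and at 123, 144, 123, 115 and 142 in Tb-DOX. The groups did not overlap in either state. The rise of *Gstm1* was 0.74 on the log2 scale (SE 0.104, adjusted p = 2.49e-05) without a tumor and 0.49 (SE 0.0984, adjusted p = 0.00745) with a tumor, and the difference of −0.26 (SE 0.143) was not called (adjusted p = 0.236).

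*Gstm2* was 65.0 ± 9.99 in Control and 102 ± 5.71 in DOX, and 69.0 ± 9.88 in Tb and 102 ± 8.20 in Tb-DOX, with no overlap in either state. Its log2 fold change was 0.66 (SE 0.106, adjusted p = 0.000102) without and 0.56 (SE 0.101, adjusted p = 0.00384) with a tumor. *Gstm7* rose from 14.5 ± 1.95 to 23.8 ± 1.90 without a tumor (log2 fold change 0.71, SE 0.139, adjusted p = 0.00054) and from 12.6 ± 2.20 to 20.1 ± 3.89 with a tumor (0.67, SE 0.132, adjusted p = 0.0064). For *Gstm7* the groups overlapped with a tumor only. *Gstk1*, a mitochondrial and peroxisomal transferase, rose from 27.2 ± 3.34 to 40.4 ± 6.28 without a tumor (0.57, SE 0.114, adjusted p = 0.00064) and from 26.5 ± 2.07 to 37.3 ± 5.02 with a tumor (0.50, SE 0.108, adjusted p = 0.0127), without overlap in either state. These 4 rises were called without each of the 21 libraries in turn. The differences between both states were −0.09 (SE 0.146) for *Gstm2*, −0.04 (SE 0.192) for *Gstm7* and −0.08 (SE 0.157) for *Gstk1*, and none was called.

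**Figure D4:**
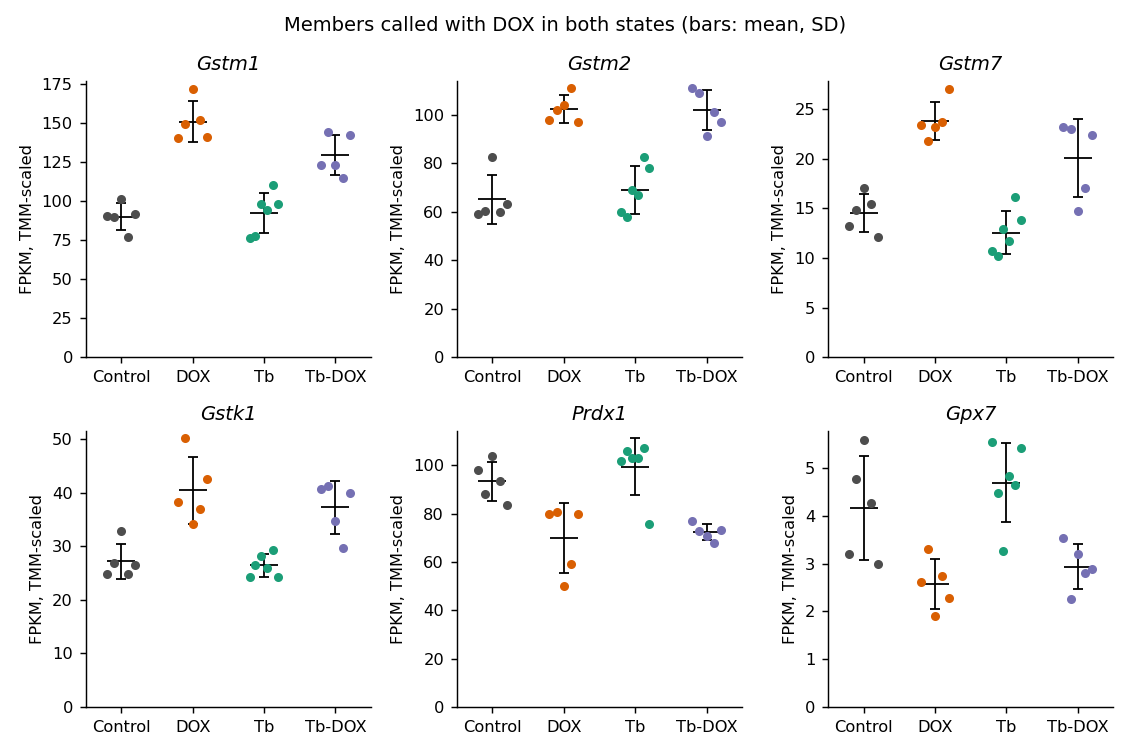
Level in each library as TMM-scaled FPKM, with the mean and SD of each group, of the 6 members called with doxorubicin both without and with a tumor. *Gstm1*, *Gstm2*, *Gstm7* and *Gstk1* are higher in DOX than in Control and in Tb-DOX than in Tb, and *Prdx1* and *Gpx7* are lower.

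The summed level of the 8 cardiomyocyte markers also differed between these groups. It was 57535 to 70515 CPM in Control, 72533 to 87829 in DOX, 48279 to 57670 in Tb and 60835 to 75500 in Tb-DOX. Only 3 of the 8 markers (*Myh6*, *Tnnt2* and *Pln*) rose and 1 (*Ttn*) fell without a tumor, 2 (*Myh6* and *Tnnt2*) rose with a tumor, and none was at 0. Whether this bears on the transferases was not tested.

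*Gstt1*, a theta-class transferase, fell with doxorubicin in mice without a tumor. It was at 7.30, 8.79, 8.50, 7.75 and 7.75 in Control, at 3.36, 3.10, 2.88, 3.48 and 3.64 in DOX, at 1.27 to 7.15 (median 5.33) in Tb and at 3.49, 3.49, 4.69, 4.08 and 4.19 in Tb-DOX. The Control libraries lay above all libraries of the other groups. In log2 terms the change of *Gstt1* was −1.28 (SE 0.275, adjusted p = 0.00118) without a tumor and −0.24 (SE 0.26, adjusted p = 0.648) with a tumor, and the difference of 1.04 (SE 0.377) missed the threshold (adjusted p = 0.078). Without Tb replicate 5, the lowest Tb library at 1.27, the change with a tumor was −0.44 (SE 0.167, adjusted p = 0.125). Its neighbours on chromosome 10 (75609949 to 75673258 for the 3 genes) had lower levels and were not called, with log2 fold changes of −0.48 (SE 0.226) for *Gstt2* and −0.68 (SE 0.32) for *Gstt3* without a tumor. Leaving out Tb replicate 5 made both calls (adjusted p = 0.0129 and 0.0404 at the same log2 fold changes), and without DOX replicate 3 *Gstt3* was called at −1.02.

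Among the remaining transferases, *Gsta3*, *Gsto1*, *Gstp1* and *Gstz1* were not called in any comparison, at group means of 4.59 to 6.21, 35.6 to 44.5, 32.1 to 33.7 and 6.62 to 7.34. *Gsta4*, which acts on products of lipid peroxidation, was not called with doxorubicin (0.12, SE 0.11, without a tumor and 0.35, SE 0.106, adjusted p = 0.0555, with a tumor, a rise that was called in 3 of the 21 fits that left out 1 library).

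Of the 3 microsomal transferases, *Mgst3* had the highest level. It was at 133, 124, 131, 112 and 116 in Control, at 108, 115, 95.2, 148 and 143 in DOX, at 102 to 129 (median 119) in Tb and at 98.7, 111, 132, 77.3 and 126 in Tb-DOX. All its groups overlapped and it was not called. *Mgst1* was 6.67 ± 1.95 in Control and 11.5 ± 4.32 in DOX, with DOX replicate 5 inside the Control range (log2 fold change 0.78, SE 0.268, adjusted p = 0.0265). This call was lost without Control replicate 3, Control replicate 4 or DOX replicate 3, and when counts were scaled by library totals alone. With a tumor *Mgst1* did not pass the test (−0.02, SE 0.251).

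The 7 genes of peroxiredoxins and sulfiredoxin had 1 member that fell, in both states, and none that rose. The 1 in 7 (14.3%) was near the 18.2% of all genes that fell without a tumor, and with a tumor 2.54% of all genes fell. *Prdx1*, a cytosolic peroxiredoxin, was 93.4 ± 7.94 in Control and 69.9 ± 14.3 in DOX, with no overlap (log2 fold change −0.42, SE 0.119, adjusted p = 0.00953). It was 99.3 ± 11.8 in Tb and 72.4 ± 3.36 in Tb-DOX (log2 fold change −0.46, SE 0.115, adjusted p = 0.0259), where Tb replicate 6 at 75.6 lay inside the Tb-DOX range and the call was lost in 7 of the 21 fits that left out 1 library.

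*Prdx3* was at 138, 135, 119, 134 and 131 in Control, at 142, 150, 106, 146 and 161 in DOX, at 108 to 150 (median 136) in Tb and at 138, 136, 141, 108 and 133 in Tb-DOX. Like *Prdx2*, *Prdx4*, *Prdx5* and *Prdx6*, it was not called in any comparison. *Srxn1*, sulfiredoxin, which restores overoxidized peroxiredoxins and is a known NRF2 target, was 5.53 ± 0.572 in Control, 6.92 ± 2.15 in DOX, 6.12 ± 1.28 in Tb and 5.31 ± 0.514 in Tb-DOX. Its log2 fold change of 0.32 (SE 0.179) with doxorubicin missed the threshold (adjusted p = 0.165), and without DOX replicate 4 it was called at 0.47 (adjusted p = 0.0277).

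Among superoxide dismutases and catalase, 2 of 4 genes fell without a tumor and none was called with a tumor, where 1 had an unadjusted p under 0.05. Of all genes 18.2% fell without a tumor and 2.54% with a tumor, so that no call among 4 genes is near the background there. *Cat*, catalase, was at 86.2, 85.3, 64.6, 80.0 and 66.4 in Control, at 55.7, 50.5, 56.4, 42.7 and 62.6 in DOX, at 45.6 to 84.2 (median 73.3) in Tb and at 48.2, 50.5, 48.1, 44.3 and 53.1 in Tb-DOX. Control and DOX did not overlap, while 2 Tb libraries lay within the range of Tb-DOX. For *Cat* the change was −0.51 on the log2 scale (SE 0.147, adjusted p = 0.00952) without and −0.48 (SE 0.141, adjusted p = 0.0546) with a tumor, so the estimates were close and the second missed the threshold. Without DOX replicate 4, Tb replicate 5 or Tb replicate 6 the fall with a tumor was called (−0.56 to −0.48, adjusted p = 0.0104 to 0.0455). The difference was 0.04 (SE 0.203).

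*Sod3*, the extracellular dismutase, fell from 2.77 ± 0.487 in Control to 1.76 ± 0.366 in DOX, without overlap (log2 fold change −0.66, SE 0.178, adjusted p = 0.00658). With a tumor its change was −0.26 on the log2 scale (SE 0.167, adjusted p = 0.414). *Sod1* (cytosolic) and *Sod2* (mitochondrial) were not called in any comparison, at group means of 30.3 to 34.9 and 44.5 to 53.3, although without Control replicate 3 *Sod1* was called higher in DOX (0.24, adjusted p = 0.0106, against 0.08 with all libraries). Markers of erythroid cells, which are rich in catalase and peroxiredoxins, fell with doxorubicin in both states, with a sum of 204 to 798 CPM in Control, 4.73 to 132 in DOX, 371 to 835 in Tb and 2.47 to 28.9 in Tb-DOX. Of 8 markers 7 were found and 5 tested, none of the 7 was at 0 in all libraries, and all 5 fell in both states. Peroxiredoxins other than *Prdx1* were not called in either state, with *Prdx2* at 0.09 (SE 0.093) without and 0.04 (SE 0.0889) with a tumor. Between Control and Tb the median erythroid sum was 255 and 551 CPM, and no marker was called. *Cat* changed there by −0.17 on the log2 scale (SE 0.14) and *Prdx1* by 0.09 (SE 0.114), neither called. The part of erythroid cells in the levels of *Cat*, *Prdx1* and *Prdx2* was not tested.

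A tumor alone changed 4 of the 44 genes. *Gpx1*, *Mgst1* and *Gsr* rose, and *Gsta4* fell. These were 6.82% and 2.27% of the members, where 5.0% of all genes rose and 1.29% fell. None passed the DEG limit, and 12 had an unadjusted p under 0.05 in edgeR, where DESeq2 called 9. Of the 12, those not called in edgeR were *Nqo1*, *Gclc*, *Gclm*, *Gpx3*, *Txn1* and *Txnrd1*, higher in Tb, and *Gstt1* and *Gstt2*, lower in Tb. Scaled by library totals alone, 4 members rose and none fell.

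*Gpx1* was at 14.2, 14.3, 20.3, 13.0 and 16.1 in Control, at 19.7, 16.6, 18.4, 18.1 and 20.4 in DOX, at 19.3 to 37.7 (median 27.9) in Tb and at 32.3, 28.7, 24.3, 36.5 and 21.6 in Tb-DOX. All Tb-DOX libraries lay above all DOX libraries, and 1 Control library reached into the Tb range. The log2 rise of *Gpx1* with a tumor was 0.88 (SE 0.158, adjusted p = 0.000813) in mice given saline and 0.62 (SE 0.163, adjusted p = 0.0121) in mice given doxorubicin. Both were called without each of the 21 libraries in turn.

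*Mgst1* was 6.67 ± 1.95 in Control and 13.2 ± 3.67 in Tb (n = 5 and 6, log2 fold change 0.99, SE 0.259, adjusted p = 0.0219), and the call was lost without Control replicate 3, Control replicate 4 or Tb replicate 6. *Gsr* was 4.71 ± 0.468 in Control and 7.37 ± 2.40 in Tb (0.65, SE 0.174, adjusted p = 0.0272), lost without any 1 of 5 libraries. *Gsta4* was 41.1 ± 4.62 in Control and 31.4 ± 3.38 in Tb, without overlap (−0.39, SE 0.106, adjusted p = 0.0293), lost without any 1 of 6 libraries and when counts were scaled by library totals alone. With Control replicate 3 and Tb replicate 5 left out together, only *Gpx1* of these 4 was called. *Mgst2*, which was not tested, had 0 to 4 counts in each Control and DOX library, 11 to 30 in each Tb library and 3 to 18 in each Tb-DOX library.

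Neutrophil markers rose with the tumor. The sum of 10 markers was 2.52 to 4.68 CPM in Control, 7.71 to 60.5 in DOX, 597 to 5556 in Tb and 895 to 3731 in Tb-DOX. All 10 were called higher in Tb than in Control, and none was at 0 in all libraries. Several of them, such as *Ly6g*, *Camp* and *Ltf* (0 to 0.24 CPM in Control and DOX), passed the minimum FPKM only through the tumor groups. The calls of these markers were thus fixed by that filter. Within the Tb libraries, replicate 1 had the lowest sum and the lowest *Gpx1* (19.3) and *Mgst1* (8.64) but not the lowest *Gsr* (6.29, against 5.02 in replicate 2), and replicate 5 the highest sum and the highest *Gpx1* (37.7), *Mgst1* (17.3) and *Gsr* (11.8). Within Tb-DOX, replicate 5 had the lowest and replicate 4 the highest sum, and the same held for *Gpx1*, *Mgst1* and *Gsr*. The part of neutrophils in these levels was not tested.

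**Figure D5:**
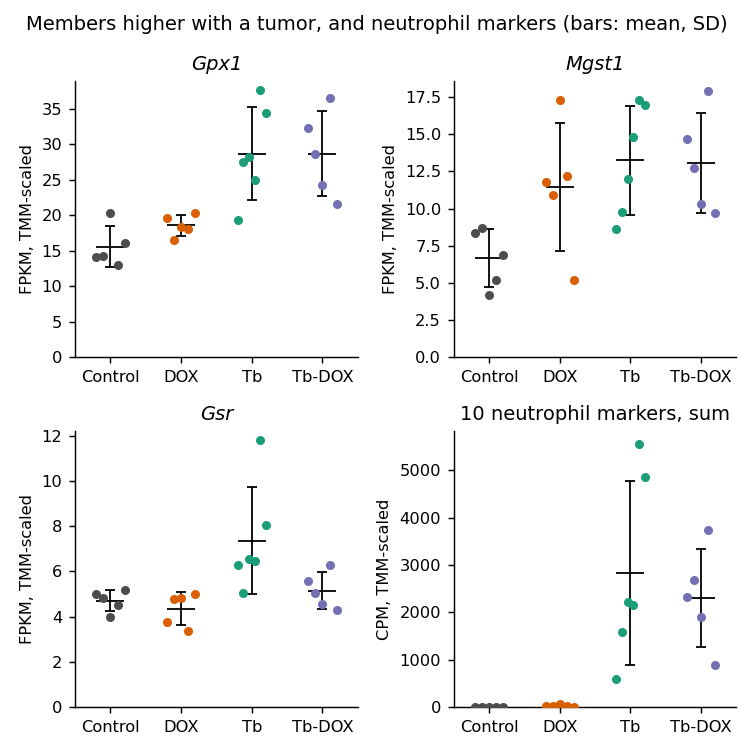
Level in each library of *Gpx1*, *Mgst1* and *Gsr* as TMM-scaled FPKM, and the sum of 10 neutrophil markers as TMM-scaled CPM, with the mean and SD of each group. The marker sum is 597 to 5556 in Tb and at most 60.5 in Control and DOX, and *Gpx1* is higher in the groups with a tumor.

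Between Tb-DOX and DOX, 1 member (*Gpx1*) was higher and 3 (*Nqo1*, *Gclc* and *Txnip*) were lower in Tb-DOX, that is 2.27% and 6.82% of the members, where 9.52% of all genes were higher and 7.93% lower. No member passed the DEG limit, and 10 had an unadjusted p under 0.05 in edgeR, where DESeq2 called 5. With library totals the median of all genes moved to 0.18 on the log2 scale, and 5 members were higher and 1 lower, so that the balance of directions depends on the scaling. This comparison shares its libraries with the doxorubicin comparisons and is no separate evidence.

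Over all 5 comparisons, 21 members (47.7%) were called at least once, where 44.6% of all genes tested were, and 23 were called in none. Other genes of the pathway were taken from 6 lists of 69 genes, of which 52 were tested. With doxorubicin 11 rose and 11 fell without a tumor (21.2% each), and 2 rose and 2 fell with a tumor (3.85% each). These shares were near those of all genes, of which 18.0% rose and 18.2% fell without a tumor and 2.18% rose and 2.54% fell with a tumor. Of the 52 genes, 6 passed the DEG limit without a tumor and none did with a tumor. In the tumor comparisons the shares were further from those of all genes. Between Tb and Control 13 were higher (25.0%, all genes 5.0%) and 1 lower (1.92%, all genes 1.29%), and between Tb-DOX and DOX 14 were higher (26.9%, all genes 9.52%) and 6 lower (11.5%, all genes 7.93%). Of these, *Ggt1* passed the minimum FPKM only through the tumor groups (mean deposited FPKM 0.012 in Control, 0.036 in DOX, 2.61 in Tb and 1.81 in Tb-DOX), so that its rise with a tumor was fixed by that filter. Counts of the single lists below are read against the same shares.

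In the glutathione precursor, breakdown and glutaredoxin list, 2 of 12 genes rose and 2 fell without a tumor, and none was called with a tumor. *Slc3a2*, the heavy chain that carries the cystine transporter, rose from 6.99 to 14.8 (log2 fold change 1.08, SE 0.214, adjusted p = 0.000636), and *Cth*, which makes cysteine from cystathionine, from 0.964 to 3.10 (1.68, SE 0.387, adjusted p = 0.00209). *Slc7a11*, the cystine transporter itself, was below the minimum and not tested. *Chac2*, which breaks glutathione down, fell from 17.7 to 8.14 (−1.12, SE 0.279, adjusted p = 0.00369). *Slc3a2* was also higher with a tumor alone (13.8 in Tb, log2 fold change 0.98, SE 0.207, adjusted p = 0.00393), and Tb-DOX, at 12.3, was not called against Tb (adjusted p = 0.677) or DOX (adjusted p = 0.397). The change with doxorubicin differed with a tumor for *Slc3a2* (−1.25, SE 0.294, adjusted p = 0.0181) and *Chac2* (1.31, SE 0.381, adjusted p = 0.0369).

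In the NADPH supply list, 2 of 9 genes rose and 3 fell with doxorubicin without a tumor, and 1 rose and 1 fell with a tumor. With a tumor alone 4 of the 9 (44.4%) were higher and none lower, among them *G6pdx*, the first enzyme of the pentose phosphate pathway (2.26 to 12.0, log2 fold change 2.41, SE 0.338, adjusted p = 4.09e-05), which was chosen after its values were seen. The neutrophil markers given above rose in the same comparison, and their part in these levels was not tested. *Nnt*, the mitochondrial transhydrogenase, rose from 1.34 to 3.99 without a tumor (1.58, SE 0.177, adjusted p = 3.31e-06) and from 1.49 to 2.45 with a tumor (0.72, SE 0.165, adjusted p = 0.017), a difference of −0.86 (SE 0.241, adjusted p = 0.0319). Of 14 NRF2 partners, regulators and other targets, 3 rose and 3 fell without a tumor, and with a tumor none rose and 1 fell. *Ptgr1*, prostaglandin reductase and a known NRF2 target, fell from 1.67 to 0.669 (−1.32, SE 0.295, adjusted p = 0.00171). Among methionine sulfoxide reductases and sestrins 3 of 7 rose and 2 fell without a tumor, 1 rose and none fell with a tumor, and 2 were lower in Tb-DOX than in DOX, and the 1 tested gene of other glutathione and thioredoxin families was not called.

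In the list of oxidant-producing enzymes, 1 of 9 rose and 1 fell with doxorubicin, the latter *Cybb*, the catalytic subunit of the phagocyte NADPH oxidase (1.91 to 0.915, −1.06, SE 0.339, adjusted p = 0.0188). Of 8 macrophage markers 5 fell and none rose in the same comparison, with a sum of 125 to 159 CPM in Control and 64.0 to 128 in DOX, none was at 0 in all libraries, and their part in the fall of *Cybb* was not tested. With a tumor alone 6 of the 9 (66.7%) rose and none fell, where 5.0% of all genes rose and 1.29% fell, alongside the neutrophil markers given above.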

How the data were processed

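Per the labels, mRNA was enriched with oligo(dT) beads or rRNA was depleted, and libraries were sequenced in paired-end mode; the study's methods give oligo(dT) beads. The submitters' processing notes name cutadapt, FastQC, HISAT2, HTSeq 0.6.1, DESeq2 1.34.0 and the build GRCm39, with no role or order. In a single table, the authors deposited raw read counts (whole numbers) together with FPKM for every library. The deposited FPKM equals the count divided by exon length and library total, within 0.01, in 100.0% of values. Whether the counting used strand is not given in the sources used here. Libraries held 13521200 to 18601445 counts. Counting error alone did not account for the differences between replicates (chi-square per degree of freedom at least 5.95). Over all genes, pairs with Control replicate 3 were at 91.1 to 104 (other Control pairs 5.95 to 10.1) and pairs with Tb replicate 5 at 79.1 to 108, and Tb replicate 6 was at 36.2 to 70.6 against Tb replicates 1 to 4, which were at 7.29 to 22.2 among themselves. In DOX, pairs with replicate 3, 4 or 5 were at 25.1 to 49.5, against 9.7 for replicates 1 and 2. In Tb-DOX, pairs with replicate 4 were at 22.4 to 42, against 9.41 to 16.1 for the other pairs.

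Libraries were grouped by title. Counts were fitted with edgeR 4.0.16 in R 4.3.3 (TMM scaling, quasi-likelihood F tests, two-sided, 1 coefficient per group, all 21 libraries in 1 fit), over the 13990 genes whose FPKM averaged at least 0.5. The Benjamini-Hochberg adjustment ran over these genes, each SE is the fold change divided by the square root of its F statistic, and a DEG also had to reach 1 in absolute log2 fold change. Comparisons were DOX vs Control, Tb-DOX vs Tb, their interaction, Tb vs Control and Tb-DOX vs DOX. The fit was tested on simulated data.

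The members, the 6 pathway lists and the marker lists were chosen with earlier results of these data known. Values per library are given for DEGs, for interaction calls, for *Nfe2l2*, *Keap1* and *Nqo1*, and for the most abundant member of each role. The Tb libraries are given as range and median only. Other names in the text, such as *Gpx1*, were chosen after their values were seen. Of pathway genes, DEGs with doxorubicin are named. Of the listed symbols, *Gsta13* and the erythroid marker *Ahsp* were not found by symbol in the table. Promoter windows were read from RefSeq on GRCm38.p6, and shared transcript stretches from GENCODE M21; coordinates of genes are those of the table on GRCm39. Alternatives were other scalings, filters and thresholds, limma 3.58.1 on log2(FPKM + 0.1) and log2(FPKM + 1), DESeq2 1.42.0, robust dispersion, only the groups compared, the replicate number as a block, and leaving out each library. Leaving out Control replicate 3 and Tb replicate 5 together was added after seeing the data.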

Additional observations from a re-analysis of the deposited data

Results flagged for a closer look

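Of 176 sets of values (44 genes in 4 groups), 20 had 1 library whose gap to the nearest of the others was a large part of the whole range, past the 95% limit of Dixon's test, where chance alone gives about 8.8. All values are TMM-scaled FPKM. Control replicate 3 accounted for 8 of the 20, each the highest of its group. These were *Gpx4* (209, others 134 to 151), *Gstm2* (82.7, others 59.2 to 63.3), *Gstk1* (32.9, others 24.8 to 26.9), *Prdx2* (89.2, others 65.9 to 68.9), *Prdx5* (136, others 89.1 to 93.2), *Prdx6* (31.7, others 25.8 to 27.0), *Sod1* (45.5, others 28.1 to 31.2) and *Sod2* (62.6, others 49.0 to 52.3). The same library had the highest cardiomyocyte (70515 CPM) and erythroid (798 CPM) marker sums of its group.

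Tb replicate 5 was the highest of its group for 5 genes, namely *Gclc* (7.74, others 3.95 to 5.24), *Gss* (3.29, others 2.12 to 2.54), *Gpx4* (188, others 147 to 158), *Txn1* (49.3, others 33.8 to 36.8) and *Txnrd1* (24.1, others 6.92 to 9.27). Its marker sums were also the highest of its group for neutrophils (5556 CPM), cardiomyocytes (57670 CPM), erythroid cells (835 CPM) and endothelial cells (1056 CPM). The same held for T cells (46.8 CPM), skeletal muscle (21.3 CPM) and germ cells (0.182 CPM), but not for macrophages, fibroblasts or adipocytes. Tb-DOX replicate 4 was the lowest for *Gstz1* (5.47, others 7.22 to 7.55), *Prdx3* (108, others 133 to 141) and *Sod2* (33.2, others 45.0 to 48.4). Tb replicate 6 was the lowest for *Gsto1* (23.9, others 37.2 to 39.5) and *Prdx1* (75.6, others 102 to 107). DOX replicate 3 was the highest for *Gclm* (11.9, others 4.35 to 6.39) and DOX replicate 5 for *Txnip* (307, others 117 to 152).

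The change with doxorubicin differed between mice with and without a tumor, by the test of the difference itself, for *Nqo1* (−0.84 on the log2 scale), *Gclc* (−1.54), *Gclm* (−0.95) and *Txnrd1* (−1.49).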

How the results depend on the processing

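No call on a named member changed direction under any alternative. With the DEG limit of an absolute log2 fold change of 1, the number of members called went from 17 to 2 in DOX vs Control, from 6 to 0 in Tb-DOX vs Tb, from 4 to 2 for the interaction, from 4 to 0 in Tb vs Control and from 4 to 0 in Tb-DOX vs DOX. At an adjusted p under 0.01 it was 3 in Tb-DOX vs Tb, 1 for the interaction, 1 in Tb vs Control and 2 in Tb-DOX vs DOX. DESeq2 gave 10 in Tb-DOX vs Tb and 9 in Tb vs Control, and testing every gene above 0 gave 7 in Tb vs Control. Leaving out 1 library at a time gave 15 to 20, 4 to 8, 3 to 6, 1 to 6 and 3 to 5 in the same order. Members not called with all libraries but called without at least 1 library numbered 5, 3, 3, 5 and 2, none with another direction. The 1 in Tb vs Control was reached without Control replicate 3, Control replicate 4 or Tb replicate 6. With Control replicate 3 and Tb replicate 5 left out together, chosen after seeing the data, there were 20, 8, 4, 1 and 5.

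By scaling, library totals without TMM gave 9 higher and 8 lower in DOX vs Control, 4 and 1 in Tb-DOX vs Tb, 4 and 0 in Tb vs Control and 5 and 1 in Tb-DOX vs DOX. The limma fits, which have no TMM, gave 9 and 8 (FPKM + 0.1) or 9 and 10 (FPKM + 1) in DOX vs Control. The interaction of *Gclm* was lost in both of them and with library totals, and those of *Nqo1*, *Gclc* and *Txnrd1* were called in each. A positive interaction, that of *Gstt1*, was called with DESeq2, with limma on FPKM + 1, without Tb replicate 4, without Tb replicate 5 and with Control replicate 3 and Tb replicate 5 left out together.

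Replicate numbers are shared by the groups, but residuals of same-numbered libraries correlated at −0.234 to 0.210, so the numbers did not pair the samples. With the replicate number as a block, the counts were 17, 6, 3, 1 and 4; Tb replicate 6 has no partner and was taken up by its own term, so that it did not inform these values.

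Depth limits *Mgst2*, at 0 to 30 counts per library, and *Gstt3*, at 13 counts in its lowest library.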
